A study of Mus musculus with 6 samples.

Results

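The genes described here encode the subunits of the glutamate and GABA receptors, the main receptors for fast excitation and inhibition in the forebrain. Members were all genes whose symbol in the array's annotation begins with Gria, Grik, Grid, Grin or Grm followed by a digit, or with Gabr. These were 38 of the 18193 genes measured, namely 4 AMPA, 5 kainate, 2 delta, 6 NMDA and 6 metabotropic glutamate receptor genes and 15 GABA-A receptor genes. The rule also took Grid2ip, which encodes a protein that binds the delta receptor and is no subunit, and it did not use measured values.

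Transcripts were measured on 6 single-colour Affymetrix arrays of mouse dorsal telencephalon, the part of the forebrain that forms the cerebral cortex, dissected at E14.5 of embryonic life. There were 3 wild-type (WT) arrays and 3 arrays of conditional knockouts (cKO) that lack the histone methyltransferase ESET, the product of Setdb1, after recombination by Emx2Cre, a Cre recombinase expressed from Emx2 in dorsal forebrain progenitors. All 6 embryos were labelled male and C57BL\6, and the design speaks of 3 embryos of each genotype. The sources used here do not state if WT embryos had Cre, so effects of the Cre allele and of the deletion cannot be told apart. Cells in which Cre is not active, such as those of vessels, meninges and blood and the interneurons that migrate in from the ventral telencephalon, would keep the gene.

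Ionotropic glutamate receptors are assembled from 4 subunits around a cation channel. AMPA receptors carry most fast excitation, NMDA receptors admit calcium and need glycine or serine as well as glutamate, and kainate receptors act on both sides of the synapse. Metabotropic glutamate receptors signal through G proteins, and GABA-A receptors are chloride channels made mostly of alpha, beta and gamma subunits. In embryonic cortex many of these receptors are present before synapses form, and GABA depolarises young neurons because their internal chloride is high.

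Intensities below are linear array values of the brightest probe set of each gene. Fold changes are differences of mean log2(intensity + 16), cKO minus WT, with the standard error (SE) of limma's model, and adjusted p is limma's with Benjamini-Hochberg adjustment over all 18193 genes. Without detection calls no probe set can be called absent, and levels of different genes are not compared because each probe set has its own response. In dissected tissue, fewer cells of a type and less RNA per cell cannot be told apart.

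The arrays had median intensities from 91.1 to 119. Setdb1 had a mean of 1126 ± 81.9 in WT and 633 ± 115 in cKO (SD, n = 3), without overlap between the groups but short of the threshold (adjusted p = 0.137). Which exons the deletion removes is not stated. The arrays numbered 3 stood apart in both groups. WT 3 read 17294 for Xist and 22.2 for the Y-linked Eif2s3y against its male label, cKO 3 had both signals (8811 and 961), and the erythroid list had a mean log2 value of 9.88 on WT 3 and 10.17 on cKO 3 against 7.16 to 7.55 on the other 4 arrays. Markers of the labelled tissue were present, with a mean log2 value over 9 dorsal telencephalon and progenitor genes from 11.64 to 11.71 in WT and from 11.60 to 11.65 in cKO. Within this list Emx2, after which the Cre allele is named, had means of 1241 ± 138 in WT and 688 ± 49.6 in cKO (-0.83, adjusted p = 0.0714) and Eomes was at -0.63 (adjusted p = 0.14), both lower without overlap, and Neurog2 was higher without overlap (0.13). The list of 15 ventral telencephalon and interneuron markers ranged from 7.40 to 8.21 in WT and from 7.57 to 7.87 in cKO. Of these 0 of 15 passed the threshold, and 3 were higher without overlap (Gad1, Lhx6 and Nkx2-1), beside 7.9% of all genes. Nkx2-1 was dim, at 6.19, 5.94 and 20.4 in WT and 34.2, 20.7 and 63.2 in cKO. The list of 8 Cajal-Retzius markers ranged from 8.18 to 8.30 in WT and from 7.27 to 7.60 in cKO. Past the threshold was 1 of 8 (Reln, lower), where 0.242% of all genes were called lower. Without overlap 5 of 8 were lower (Reln, Trp73, Lhx1, Lhx5 and Ndnf), beside 7.64% of all genes. The median log2 fold change of the list was -1.10. In neither list was a gene below 16 on all 6 arrays. For 8 endothelium and pericyte markers the mean log2 value ran from 7.97 to 8.06 in WT and from 7.72 to 7.85 in cKO. Without overlap 3 of these were lower, beside 7.64% of all genes. For 9 young projection neuron markers it ran from 12.11 to 12.27 in WT and from 12.05 to 12.17 in cKO. Without overlap 2 of these were higher and 1 lower, beside 7.9% and 7.64% of all genes. The part of these cell types in the values below was not tested.

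No receptor gene passed the adjusted threshold in either direction. limma called 0 of 38 members, where it called 0.627% of all genes, 0.385% higher and 0.242% lower in cKO. With p under 0.05 before adjustment, 8 members were higher in cKO, beside 5.17% of all genes, and 7 were lower, beside 4.39%, which makes 9.56% of all genes in either direction. The WT and cKO arrays did not overlap for 17 of the 38 members, 9 higher and 8 lower in cKO, beside 15.5% of all genes. This count depended on the processing. With median centring Gabrg1, Gria4, Grin3a and Grm4 overlapped, and with quantile normalization Gabrg1 and Grm4 did. The other members kept their side in both settings, for which the share over all genes is not given here. The median log2 fold change of the members was 0.06, and that of all genes 0.01. The receptor genes had estimates on both sides of 0 and no common direction. By class the medians were 0.11 for AMPA, 0.10 for kainate, 0.40 for delta, -0.19 for NMDA, -0.42 for metabotropic and 0.55 for GABA-A genes. The GABA-A median is the estimate of Gabrq, a dim gene that read from 4.59 to 28.8. Gabrq was at 0.20 with a pseudocount of 64 and at 1.27 with a pseudocount of 1, so this median depends on the pseudocount. The delta median rests on Grid1 and on Grid2ip, which is no subunit.

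**Figure D1:**
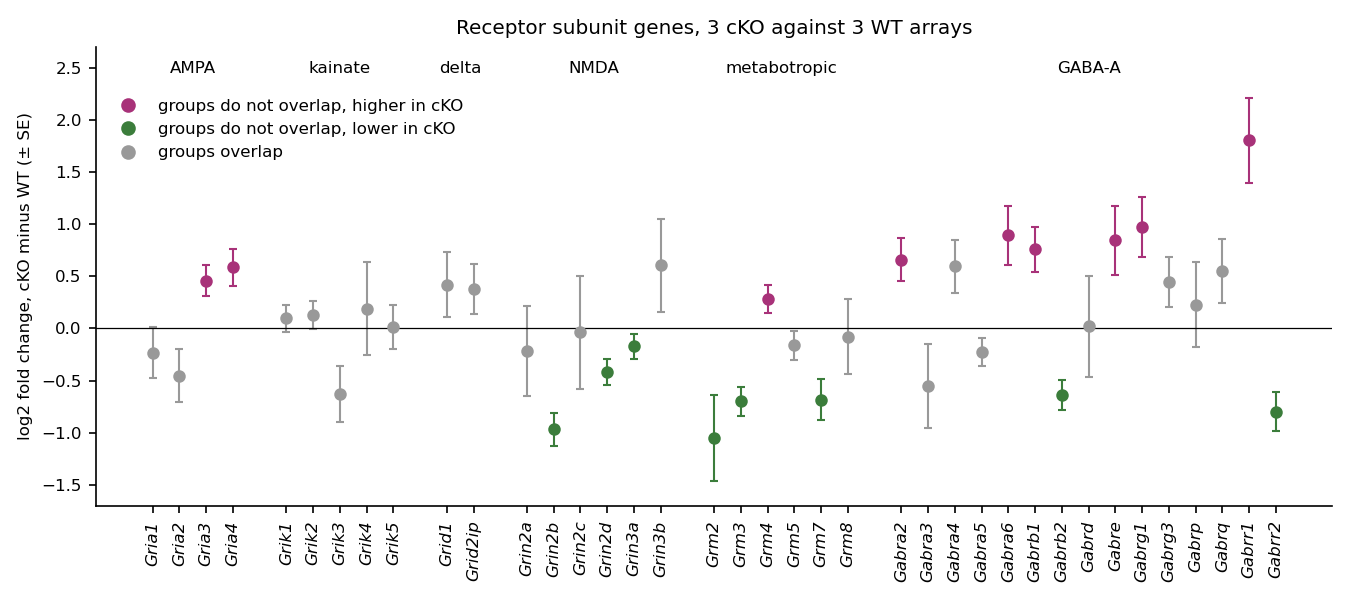
Log2 fold change (cKO minus WT, points) with its SE (bars) for each of the 38 members, by receptor class. Coloured points are the 17 genes without overlap between WT and cKO arrays, and grey points the other 21; estimates run from -1.05 for Grm2 to 1.80 for Gabrr1.

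Among the NMDA receptor genes the cKO arrays lay below the WT arrays for 3 of 6 members, where 7.64% of all genes were lower without overlap, and the estimate was negative for 5. Grin2b had the smallest p of all 38 members. It encodes GluN2B, the subunit that prevails in NMDA receptors before birth and slows their currents. It read 729, 542 and 679 on WT 1 to 3 and 352, 289.9 and 327 on cKO 1 to 3. The lowest WT array was above the highest cKO array. The log2 fold change was -0.97 (SE 0.16, adjusted p = 0.0714), just short of the threshold, and over 17 alternative settings it ran from -1.09 to -0.67 with adjusted p from 0.0119 to 0.336. Grin2b passed in 3 of these settings, namely with a pseudocount of 64 (adjusted p = 0.0275), without the dimmer genes (adjusted p = 0.0119) and with eBayes trend and robust settings (adjusted p = 0.014). Without both arrays numbered 3 it was at -0.94 (adjusted p = 0.32).

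Other probe sets of Grin2b were lower in cKO to different degrees. One read 56.9, 59.1 and 72.8 in WT and 20.2, 47.7 and 13.1 in cKO, which came to -0.95 (SE 0.30) without overlap. Another read 558, 409.7 and 292 in WT and 259, 392 and 133 in cKO, with overlap. The remaining one was at -0.04 (SE 0.21), so the probe sets of this gene were not alike.

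Grin2d encodes GluN2D, another subunit of early life, found in interneurons and in parts of the brain below the cortex. It read 76.0, 87.2 and 84.4 in WT and 58.2, 52.5 and 62.7 in cKO. All cKO arrays were lower, by a small amount, and the log2 fold change was -0.42 (SE 0.12, adjusted p = 0.306). The other probe set of Grin2d overlapped (-0.33, SE 0.32). Grin3a encodes a subunit that lowers the calcium permeability of the receptor. It read 47.5, 51.6 and 51.1 in WT and 46.8, 38.6 and 43.0 in cKO, so the groups parted by less than 1 unit, and its other probe sets were at 0.02 and 0.01. Its log2 fold change was -0.17 (SE 0.12). Grin2a, Grin2c and Grin3b, encoding subunits of the mature forebrain, of cerebellum and of the spinal cord and hindbrain, overlapped between the groups, with every array between 2.05 and 76.3.

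The metabotropic genes resembled the NMDA genes in sign, with 5 of 6 estimates below 0. Grm2 and Grm3 encode the group II receptors, which lower cyclic AMP and act largely at presynaptic terminals and, for Grm3, on glia. Grm3 read 105, 127 and 107 in WT and 59.0, 58.8 and 72.6 in cKO. The groups stood well apart. The log2 fold change came to -0.70 (SE 0.14, adjusted p = 0.126), and over the alternatives adjusted p ran from 0.113 to 0.33. Grm2 read 53.4, 25.6 and 121 in WT and 23.3, 19.2 and 16.2 in cKO. Here WT 3 was far above WT 1 and WT 2, and the log2 fold change of -1.05 (SE 0.41, adjusted p = 0.488) became -0.60 without WT 3 and -0.53 without both arrays numbered 3.

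The group III receptors, also inhibitory on cyclic AMP, differed in sign. Grm7, an autoreceptor of the active zone, read 92.3, 81.5 and 99.3 in WT and 38.1, 70.4 and 46.8 in cKO. The cKO arrays were all lower, and the log2 fold change came to -0.68 (SE 0.20, adjusted p = 0.297), while a dim probe set of the same gene, with no array above 13.4, had groups parted in the other direction (0.37, SE 0.16). Grm4 read 88.3, 102 and 101 in WT and 107, 119 and 139 in cKO, without overlap (log2 fold change 0.28, SE 0.14, adjusted p = 0.614). Grm8 overlapped, between 9.39 and 42.8. Grm5, the group I receptor that couples to phospholipase C and is the one of its group known in cortical progenitors, had means of 351 ± 43.7 in WT and 312 ± 21.8 in cKO (SD, n = 3) with overlap (-0.16, SE 0.14).

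The AMPA receptor genes parted by subunit. Gria3 and Gria4 had higher arrays in cKO, while Gria1 and Gria2 had estimates below 0 with overlapping groups. Gria4, encoding GluA4, the AMPA subunit of early circuits and of interneurons, read 669.7, 654 and 544 in WT and 1118, 956 and 774 in cKO. Every cKO array was above every WT array, and the log2 fold change came to 0.59 (SE 0.18, adjusted p = 0.32). With median centring the groups of Gria4 overlapped, at 0.54 (adjusted p = 0.665 in limma). A second probe set of Gria4 had the larger difference, from 109, 103 and 87.9 in WT to 205, 174 and 211 in cKO (0.88, SE 0.15, adjusted p = 0.132 over all 45037 probe sets). The remaining and dimmer one overlapped (0.13, SE 0.19).

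Gria3, encoding GluA3, read 886, 919.9 and 882 in WT and 1031, 1343 and 1363 in cKO. WT arrays were close together and cKO 1 was the nearest to them, and the log2 fold change was 0.46 (SE 0.15, adjusted p = 0.369). Gria2 encodes GluA2, the subunit that makes AMPA receptors impermeable to calcium. It read 8581, 8269.6 and 5557 in WT and 6429, 5993 and 3982 in cKO. In each group the array numbered 3 was the lowest, so the groups overlapped through WT 3, and the log2 fold change was -0.45 (SE 0.26, adjusted p = 0.688). With the arrays numbered 3 kept as a block, adjusted p was 0.165, and all 3 probe sets of Gria2 had estimates from -0.45 to -0.22. Gria1, encoding GluA1, had means of 757 ± 193 and 636 ± 126 with overlap (-0.23, SE 0.24).

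No kainate gene had groups that parted. Grik3, a low-affinity subunit, had the lowest estimate of the class, from 1270.3, 1112 and 828 in WT to 501, 933 and 660.4 in cKO (-0.63, SE 0.27, adjusted p = 0.539). Only cKO 2 reached into the WT range. Grik1 had means of 106 ± 6.82 and 115 ± 12.4, Grik2 of 483 ± 52.8 and 527 ± 35.2, and Grik5, a high-affinity subunit, of 469.5 ± 48.9 and 483 ± 133 (WT and cKO, SD, n = 3). Their log2 fold changes were between 0.01 and 0.13. Grik4, the other high-affinity subunit, was between 3.78 and 40.8 on all arrays. Grid1, encoding a delta receptor that binds cerebellins rather than passing glutamate currents, overlapped between 28.7 and 101 (0.42, SE 0.31), and a dimmer probe set of it did not overlap, from 25.3, 11.2 and 23.3 in WT to 50.9, 36.0 and 63.0 in cKO (0.88, SE 0.24, adjusted p = 0.36). Grid2ip overlapped, with means of 60.6 ± 21.9 and 81.7 ± 15.6.

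**Figure D2:**
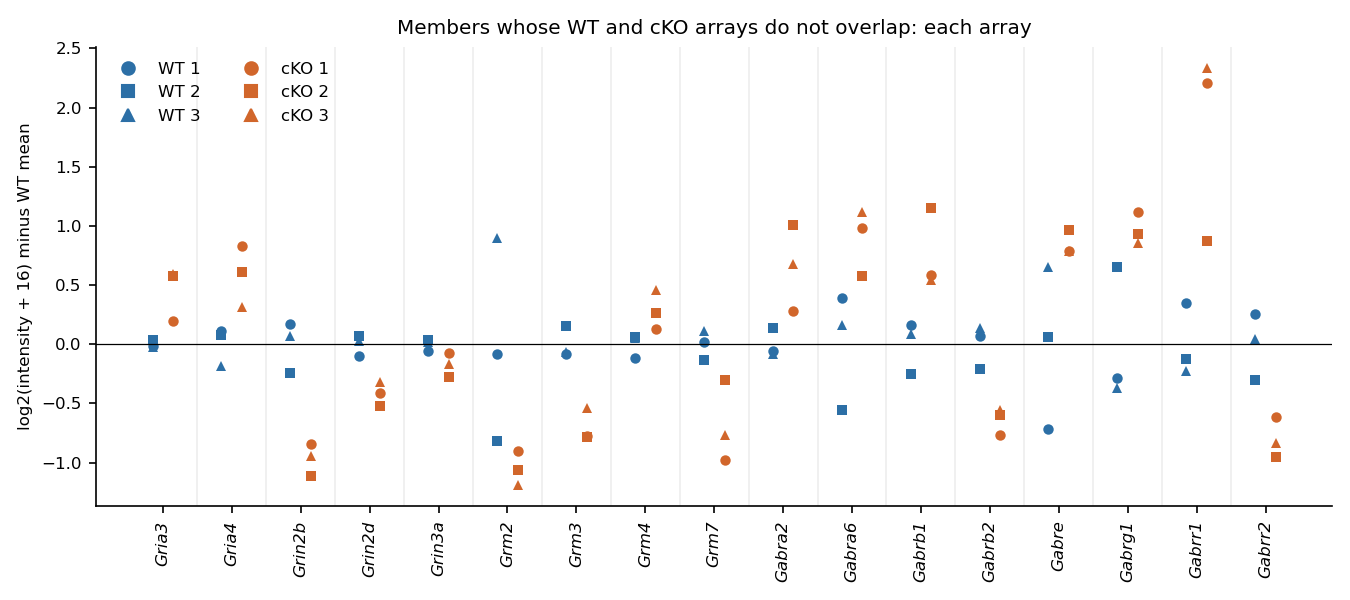
Each array's log2(intensity + 16) minus the gene's WT mean, for the 17 members without overlap between groups, WT in blue and cKO in orange, with 1 marker shape for each array number. The cKO arrays of Grin2b average -0.97 and those of Gria4 0.59, and for Grm2 the WT 3 array lies far above the other WT arrays.

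The GABA-A receptor genes formed the largest class, and 11 of 15 estimates were above 0, beside 9313 of all 18193 genes. Among its members above 100 on at least 3 arrays, Gabra2, Gabra4 and Gabrb1 were above 0 and Gabra3, Gabra5 and Gabrb2 below. The groups did not overlap for 6 genes higher and 2 lower in cKO, beside 7.9% of all genes higher and 7.64% lower. Of those higher, Gabra6, Gabre, Gabrg1 and Gabrr1 were dim, with WT means from 10.6 to 18.6. Gabrb2, encoding the beta2 subunit of the most common adult receptor, was the clearest of those lower in cKO. It read 649, 534 and 683 in WT and 357, 403 and 416 in cKO. Every cKO array was below every WT array, and the log2 fold change was -0.64 (SE 0.15, adjusted p = 0.174). It passed in 1 of 17 alternatives, without the dimmer genes (adjusted p = 0.0483). All 5 probe sets of Gabrb2 had estimates below 0, from -0.64 to -0.08, and 2 of them had groups that did not overlap.

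Gabra2, Gabra4, Gabrb1 and Gabrg1 lie side by side on chromosome 5, and each had an estimate above 0. Gabra2 encodes an alpha subunit that is abundant in the embryonic forebrain. It read 335, 385 and 327 in WT and 427, 717 and 568 in cKO, with cKO 1 nearest to WT (0.66, SE 0.21, adjusted p = 0.344). Gabrb1, encoding the beta1 subunit, read 149.8, 108 and 141 in WT and 206, 313 and 199.7 in cKO. It did not overlap between the groups, at 0.76 (SE 0.21, adjusted p = 0.28), and neither did the next brightest of its probe sets, which read 43.9, 54.6 and 59.5 in WT and 80.4, 112 and 75.4 in cKO (0.61, SE 0.19). A further one was at 0.59 (SE 0.16) without overlap.

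Gabra4, encoding an alpha subunit of extrasynaptic receptors, read 143, 183 and 107 in WT and 174, 293 and 212 in cKO. WT 2 was above cKO 1, so the groups overlapped, and the log2 fold change was 0.60 (SE 0.25, adjusted p = 0.531). A dimmer probe set of Gabra4 did not overlap, from 54.7, 41.8 and 41.9 in WT to 77.5, 92.0 and 165 in cKO (0.98, SE 0.27, adjusted p = 0.369). Gabrg1, encoding a gamma subunit, read 4.60, 23.7 and 3.52 in WT and 38.6, 32.1 and 29.7 in cKO. With a WT mean of 10.6, its log2 fold change of 0.97 (SE 0.29) depends on the pseudocount of 16. The other probe set of Gabrg1 overlapped (0.16, SE 0.28). On all 3 brighter genes of this group cKO 2 was the highest array, and without both arrays numbered 3 the estimates were 0.60 for Gabra2, 0.91 for Gabrb1 and 0.45 for Gabra4.

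**Figure D3:**
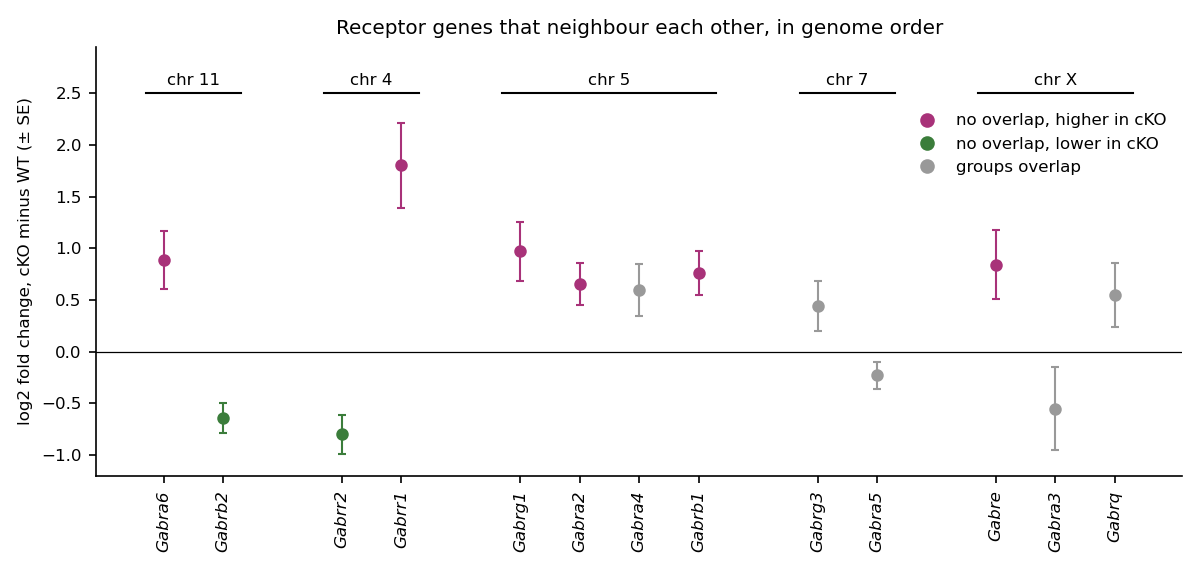
Log2 fold change (cKO minus WT, points) with its SE (bars) of the receptor genes within 1 Mb of another, in genome order by chromosome. The 4 genes on chromosome 5 lie between 0.60 and 0.97, and each of the other 4 groups holds estimates on both sides of 0.

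In all, 13 members fall into 5 such neighbour groups by the RefSeq table of GRCm38.p6. In the other 4 groups the signs were mixed. On chromosome 11 Gabra6, encoding an alpha subunit of cerebellar granule cells, read 20.4, 2.93 and 15.2 in WT and 39.0, 25.3 and 44.3 in cKO, opposite in sign to its neighbour Gabrb2. At this level the pseudocount sets the fold, and its other probe set was at -0.08. On the X chromosome Gabre read 3.64, 17.6 and 34.5 in WT and 39.4, 46.7 and 39.5 in cKO (0.84, SE 0.33), where WT 3 came close to cKO, while Gabra3, an alpha subunit of the embryonic brain, overlapped and was lowest on the arrays numbered 3 (170.0 on WT 3 and 82.1 on cKO 3). Gabrq, of the same group, overlapped between 4.59 and 28.8. On chromosome 7 Gabra5, an alpha subunit of extrasynaptic receptors of hippocampus and cortex, had means of 148 ± 12.1 and 124 ± 12.0 (-0.23, SE 0.13) and Gabrg3 was at most 31.4 on every array, each with overlap.

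The rho subunits form GABA receptors known from the retina, and their genes Gabrr2 and Gabrr1 adjoin on chromosome 4. Their arrays parted in opposite directions. Gabrr1 read 21.3, 11.0 and 9.14 in WT and 119.6, 37.7 and 132 in cKO. Its estimate of 1.80 (SE 0.41, adjusted p = 0.175) was the highest of all members, with cKO 2 well below the other cKO arrays, and over the alternatives it ran from 0.99 to 2.61 with adjusted p from 0.056 to 0.496. Gabrr2 read 30.4, 15.3 and 24.0 in WT and 9.32, 3.97 and 5.78 in cKO (-0.80, SE 0.19, adjusted p = 0.184). The WT mean of Gabrr1 (13.8) and the cKO mean of Gabrr2 (6.36) are under 16, so that the pseudocount governs the size of both folds. Gabrd, of extrasynaptic receptors, and Gabrp overlapped, the latter with its highest arrays being WT 3 and cKO 3 (114 and 148).

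The promoter windows of these neighbours run from 250 bases before to 50 after a transcript start in RefSeq (GRCm38.p6). They are printed because Gabra4 and Gabrb1 start close together on opposite strands and Gabrr2 and Gabrr1 parted in opposite directions. CG dinucleotides, the sites of DNA methylation, are in capitals, and each window is read along its gene's strand. The windows are chr5:71658259-71658558 (minus strand) for Gabra4, chr5:71657671-71657970 (plus) for Gabrb1, chr4:33062862-33063161 (plus) for Gabrr2 and chr4:33132306-33132605 (plus) for Gabrr1.
Gabra4: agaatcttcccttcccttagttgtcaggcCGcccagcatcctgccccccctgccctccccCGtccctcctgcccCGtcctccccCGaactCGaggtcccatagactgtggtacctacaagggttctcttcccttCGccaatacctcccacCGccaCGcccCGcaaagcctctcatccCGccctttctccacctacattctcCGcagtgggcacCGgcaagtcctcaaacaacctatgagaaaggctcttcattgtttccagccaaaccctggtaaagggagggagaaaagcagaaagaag
Gabrb1: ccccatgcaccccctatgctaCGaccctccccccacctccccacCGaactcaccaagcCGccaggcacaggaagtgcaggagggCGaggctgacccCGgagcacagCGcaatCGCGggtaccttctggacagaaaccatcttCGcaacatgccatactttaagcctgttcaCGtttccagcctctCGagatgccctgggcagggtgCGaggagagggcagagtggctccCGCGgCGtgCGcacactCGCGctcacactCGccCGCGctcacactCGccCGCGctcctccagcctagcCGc
Gabrr2: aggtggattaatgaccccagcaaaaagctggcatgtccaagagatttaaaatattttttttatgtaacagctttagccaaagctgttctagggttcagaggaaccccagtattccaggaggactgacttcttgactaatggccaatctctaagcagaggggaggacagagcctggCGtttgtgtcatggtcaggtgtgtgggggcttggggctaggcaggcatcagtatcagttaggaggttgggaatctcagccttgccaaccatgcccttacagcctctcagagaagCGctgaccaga
Gabrr1: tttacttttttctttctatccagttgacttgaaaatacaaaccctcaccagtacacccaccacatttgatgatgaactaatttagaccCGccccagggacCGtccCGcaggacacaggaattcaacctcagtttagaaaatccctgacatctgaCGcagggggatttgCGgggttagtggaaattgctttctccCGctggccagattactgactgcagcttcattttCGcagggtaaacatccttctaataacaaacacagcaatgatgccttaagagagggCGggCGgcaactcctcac

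The windows of Gabra4 and Gabrb1 lie on opposite strands with 288 bases between them. By strand and position each gene is read from its start across these bases toward the other's start. The 288 bases therefore lie upstream of neither start. Gabrb1 has a second window in the table, from another transcript start, with 9 CG dinucleotides, which is not printed because it is not the one opposite Gabra4. The printed window of Gabrb1 has 25, as many or more of which are in 18.4% of all 32851 windows in the table, and Gabra4 has 12 (39.6%). Gabrr1 has 9 (45.8%) and Gabrr2 has 2 (85.9%), beside a median of 7 over all windows. The motif TATAAA was in none of the 4 windows on either strand, and in 13.6% of all windows. A window was found for 28 of the 38 members, and the CG count of their 36 windows ran from 0 to 50 with a median of 12.

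Of the 38 members, 23 had more than 1 probe set. Among their 39 other probe sets, 31 had the sign of the brightest one, and 0 of all 77 member probe sets passed the threshold over 45037 probe sets in limma (lowest adjusted p = 0.132). The plot of every probe set shows where they part. Gabrd, at 0.02 on its brightest probe set, had another that read 30.3, 40.1 and 24.6 in WT and 2.46, 19.3 and 3.40 in cKO (-1.02, SE 0.29), without overlap. Of Gabra2, one probe set was highest on the array numbered 3 in each group, at 146, 156 and 578 in WT and 220.5, 394 and 845 in cKO. Its groups overlapped through WT 3, and its estimate was 0.78 (SE 0.65). Gria3 also had one that was highest on the arrays numbered 3 (621 and 803), with groups that overlapped (0.33, SE 0.27).

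**Figure D4:**
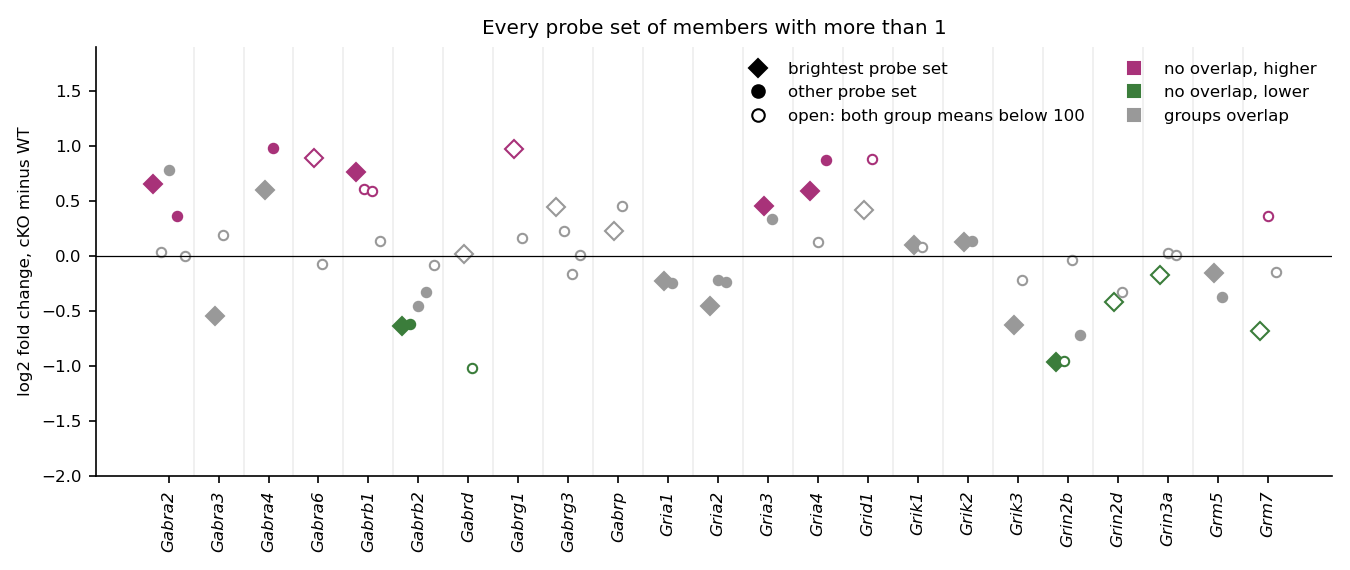
Log2 fold change (cKO minus WT) of every probe set of the 23 members with more than 1, with the brightest as a diamond and probe sets whose group means are both below 100 as open symbols. All probe sets of Gabrb1 and Gabrb2 lie on 1 side of 0, and those of Gabra2, Gabra3, Gabra6, Gabrd, Gabrg3, Grin3a and Grm7 on both.

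Genes that act with the receptors were taken from 7 lists by textbook role. The lists were written with earlier results of these data known, so their counts are no independent test. Of 88 genes written, 78 were measured, with a median log2 fold change of -0.04. Past the threshold 1 rose and 1 fell, where 0.385% of all genes rose and 0.242% fell. The groups did not overlap for 24 of the 78, 11 higher and 13 lower in cKO, beside 15.5% of all genes. Gsg1l, encoding an auxiliary AMPA receptor subunit that slows recovery from desensitisation, fell from 236, 279 and 236 in WT to 98.2, 95.3 and 57.7 in cKO. Every cKO array was well below every WT array (-1.44, SE 0.20, adjusted p = 0.0495). This call stood at the edge of the threshold. It was lost with quantile normalization (adjusted p = 0.0965), with median centring (adjusted p = 0.0876), with a pseudocount of 1 (adjusted p = 0.101), with the mean of all probe sets (adjusted p = 0.0521) and without _x_at and _s_at probe sets (adjusted p = 0.0515). It was also lost without any 1 of the 6 arrays (adjusted p from 0.0651 to 0.18), with the fold between -1.55 and -1.23.

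Lhfpl3, encoding a tetraspanning protein of the LHFPL family, whose member Lhfpl4 anchors GABA-A receptors, rose from 60.6, 51.3 and 186 in WT to 1130.3, 722 and 1132 in cKO (3.29, SE 0.44, adjusted p = 0.042). WT 3 was above the other WT arrays. Without WT 3 the call was kept (adjusted p = 0.016), and it was lost without WT 1, WT 2, cKO 1, cKO 2 or cKO 3 (adjusted p from 0.119 to 0.169). It was also lost with a pseudocount of 1 (adjusted p = 0.101) and with the mean of all probe sets (adjusted p = 0.057). Without both arrays numbered 3 the folds were -1.27 for Gsg1l and 3.68 for Lhfpl3, and neither passed.

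The other lists had values on both sides of 0. Of 14 auxiliary AMPA and kainate subunits the median was 0.03, and Cnih2, a cornichon that slows AMPA receptor deactivation, was at -0.73 (SE 0.19, adjusted p = 0.243) without overlap. Of 22 excitatory scaffold genes 0 passed, with 6 lower and 1 higher before adjustment (p under 0.05, where 4.39% of all genes were lower and 5.17% higher) and a median of -0.25. Its smallest p were those of Grip2, a PDZ protein that anchors AMPA receptors (-0.89, SE 0.18, adjusted p = 0.134), and Dlg1, encoding SAP97 (-0.66, SE 0.14, adjusted p = 0.145). Of 14 inhibitory scaffold and trafficking genes the median was -0.01, and next to Lhfpl3 came Plcl1, which binds GABARAP (-0.65, SE 0.15, adjusted p = 0.184).

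Of 15 genes of transmitter synthesis, loading and uptake 0 passed, with 3 higher and 1 lower before adjustment (beside the same 5.17% and 4.39% of all genes) and a median of 0.19. Abat, the transaminase that degrades GABA, read 289, 331 and 494 in WT and 195, 146 and 160.4 in cKO (-1.05, SE 0.22, adjusted p = 0.151). Gad1, which makes GABA, read 958, 1102 and 1044 in WT and 1724, 1380.3 and 1284 in cKO, each cKO array higher (0.48, SE 0.15, adjusted p = 0.355). The 15 ventral telencephalon and interneuron markers, Gad1 among them, had estimates from -0.50 to 1.01 with a median of 0.07, and their part in the value of Gad1 was not tested.

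In the glycine receptor list 0 of 5 passed and 1 was lower with p under 0.05 before adjustment. This was Glra1, which read 29.1, 22.8 and 26.3 in WT and 6.38, 4.37 and 11.5 in cKO (adjusted p = 0.0953), under 16 on each cKO array, and Glrb, the beta subunit, was at 0.36 with overlap. None of 4 measured genes of the GABA-B receptor and its auxiliary subunits passed or reached an unadjusted p under 0.05 in limma, with Kctd8 at 0.80 (SE 0.45) and Kctd12b at -0.23 (SE 0.22) having the smallest p. The same held for 5 chloride transporters, where Slc12a2, the importer NKCC1, was at 0.20 (SE 0.14) and Slc12a4 at 0.20 (SE 0.17).

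**Figure D5:**
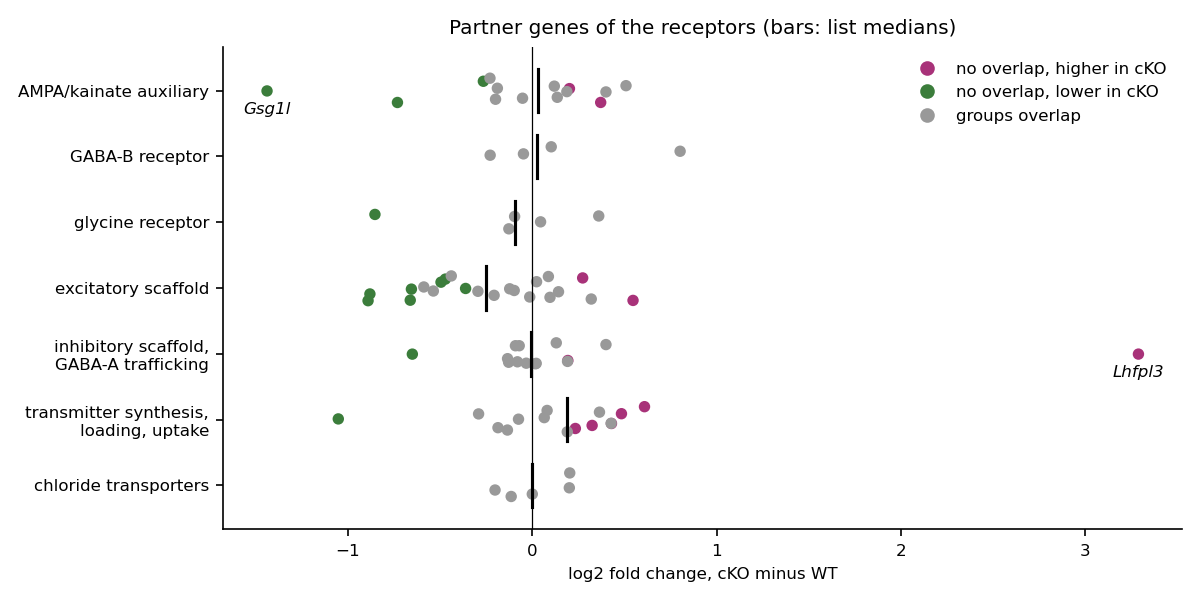
Log2 fold change (cKO minus WT) of each measured partner gene in 7 lists, with black bars at the list medians; points are spread vertically for legibility. The 2 genes past the threshold, Gsg1l at -1.44 and Lhfpl3 at 3.29, are named, and the list medians lie between -0.25 and 0.19.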

How the data were processed

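The deposited values are linear array intensities, 1 per probe set and array, made with the Affymetrix Expression Console per the submitters' processing notes; neither its version nor its algorithm is given in the sources used here. Per array, the mean intensity after trimming 2% at each end was 497.2 to 497.7. Array medians of log2(intensity + 16) differed by 0.334, under the 0.5 set for centring, so the values were used as deposited. All 45037 probe sets were kept, and 34945 of them have 1 gene in the platform annotation. Each of 18193 genes stands by its brightest probe set (mean log2 value over the 6 arrays). limma 3.58.1 in R 4.3.3 (lmFit, eBayes) was fitted with genotype as its only term, with Benjamini-Hochberg adjustment over all genes and a threshold of 0.05. The fit was tested on simulated data. The 3 arrays per group limit the precision.

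The members, gene lists and rules were chosen with earlier results of these data known. All members are accounted for. Array values are given for members without overlap between the groups or whose unadjusted p is under 0.05, and for a few others (Gabra4, Gria2, Grik3 and some further probe sets) chosen after their values were seen. Of each partner list, genes past the threshold and up to 2 with the smallest p are named; Glrb and markers that bear on a result are named beyond this rule. Alternatives were quantile normalization, median centring, pseudocounts of 1 and 64, leaving out genes below the median level, the mean of all probe sets, leaving out _x_at and _s_at probe sets, eBayes with trend and robust settings, a replicate block, leaving out arrays, and the arrays numbered 3 as a block. Promoter sequences are those of RefSeq, GRCm38.p6. Some items are not reported here.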

Additional observations from a re-analysis of the deposited data

How the results depend on the processing

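The count of receptor genes past the threshold, 0 in the reported fit, was 1 with a pseudocount of 64 (Grin2b), 2 without genes below the median level (Grin2b and Gabrb2), 1 with eBayes trend and robust settings (Grin2b) and 0 in each other alternative. Without the dimmer genes, where fewer genes were tested, the median of the remaining members was -0.16. Of 619 values of single members under an alternative, 590 kept sign and side of the threshold, 4 newly passed and 25 turned sign, all of the latter with adjusted p of 0.495 or more. Gabrd turned to -0.032 with quantile normalization, -0.029 with median centring, -0.0072 with a pseudocount of 64 and -0.50 with the mean of its probe sets. Grik5 turned to -0.036 with centring and -0.14 without both arrays numbered 3, Grin2c to 0.00070 with a pseudocount of 1 and 0.41 without both arrays numbered 3, and Grin3a to 0.021 with a pseudocount of 64, where another probe set is the brightest. Leaving out 1 array gave ranges of -0.46 to 0.38 for Gabrd, -0.14 to 0.54 for Gabrp, -0.25 to 0.51 for Grik4, -0.19 to 0.16 for Grik5, -0.66 to 0.054 for Grin2a, -0.54 to 0.27 for Grin2c and -0.31 to 0.29 for Grm8. The partner genes past the threshold, 2 in the reported fit (Gsg1l and Lhfpl3), were also 2 with quantile normalization, but there Glra1 took the place of Gsg1l, and 3 with trend and robust settings, where Dlg1 was added. They were 1 with centring, 1 without _x_at and _s_at probe sets, 0 with a pseudocount of 1, 0 with the mean of all probe sets, 5 without the dimmer genes, 0 without both arrays numbered 3 and 0 to 1 when 1 array was left out. Over all genes, 114 passed, against 58 and 216 with pseudocounts of 1 and 64, 187 without the dimmer genes, 244 with trend and robust settings, 26 to 53 when 1 array was left out and 8 without both arrays numbered 3. Whether the replicate numbers pair the arrays cannot be told from the values. Deviations of same-numbered arrays correlated across genes at 0.07, 0.17 and 0.37. WT 2 and WT 3 correlated best with the cKO array of their own number, and WT 1 with cKO 2 (0.10). With the replicate block, 17 genes, 0 receptor genes and 0 partner genes passed. The causes of these shifts were not tested.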

Other observations

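Probe sets given to more than 1 gene were left out of the members. The one shared by Grm2 and Gm28111 read 66.4, 53.6 and 74.7 in WT and 69.3, 45.5 and 106 in cKO (0.10, SE 0.27, n = 3 and 3), where the probe set of Grm2 alone was at -1.05. The one shared by Gabrg3 and 6330406O05Rik was between 3.66 and 16.7 on all arrays (-0.27, SE 0.21). The members above an intensity of 100 on at least 3 arrays were 18 of 38, with 9 estimates on each side of 0 and a median of -0.07. The other 20 had 12 estimates above 0 and a median of 0.21.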
